A study of Homo sapiens with 6 samples.

Results

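A set of 10 genes of bone morphogenetic protein (BMP) and activin signalling were followed in LX-2 cells, an established human hepatic stellate cell line: *BMP2*, *BMP4*, *INHBA*, *FST*, *FSTL1*, *GREM1*, *BAMBI*, *ID1*, *ID2* and *ID3*. They were taken by symbol, and all 10 were among the 60748 genes of the deposited table. RNA sequencing compared 3 libraries of LX-2Vector cells, which carried the empty lentiviral vector, with 3 libraries of LX-2FAP cells, which stably overexpressed fibroblast activation protein α (FAP), a cell-surface serine protease. Both lines were made by lentiviral infection (GV367, with a ubiquitin promoter and EGFP and puromycin resistance), selected with puromycin, and cultured for 24 h in DMEM with 10% serum. The paper describes this selection as one of stable cell clones. The comparison asked how FAP overexpression alters a stellate cell's transcripts. In this design an effect of FAP and a difference between the lines or their clones cannot be told apart. The overexpression is of a transgene in an immortalized line, and the labels number the replicates without saying that they were separate cultures or infections, so p-values measure the spread between these libraries, which may be technical.

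BMPs are secreted dimers that bind pairs of type I and type II serine/threonine kinase receptors, which phosphorylate SMAD1, SMAD5 and SMAD9. Activins, dimers of inhibin β subunits, use related receptors and phosphorylate SMAD2 and SMAD3. The ID genes are classic direct targets of the BMP arm. The ID proteins lack a DNA-binding region and hold basic helix-loop-helix factors in inactive pairs. Extracellular antagonists (gremlin, noggin, follistatin) and the pseudoreceptor BAMBI restrain the signal, and in the liver BMP and activin ligands and BAMBI are known for their part in stellate cell activation and fibrosis.

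Total counts were 17355700 to 26352060 per library. FAP itself gave 49, 42 and 55 counts in LX-2Vector against 14864, 15160 and 14805 in LX-2FAP, a log2 fold change of 8.33 ± 0.13 (SE), higher in all 3 libraries labelled LX-2FAP. Stellate markers were present: *VIM*, *TIMP1*, *COL1A1* and *SPARC* stood at 301, 131, 34.3 and 51.0 FPKM (fragments per kilobase of gene length, scaled to library size) in LX-2Vector. The activation marker *ACTA2* was low, at 1.29 FPKM, and *COL1A2* and *GFAP* stood at 0.109 and 0.057. Other defining markers were absent or near it, with *LRAT* at 0 in all libraries and *DES* at no more than 3 counts in each. Of 12 stellate markers 10 were tested, and 1 was called higher (*VIM*) and 3 lower (*COL1A1*, *COL3A1*, *PDGFRB*), against 5.29% of all tested genes called. Summed levels were 2302 to 2436 CPM (counts scaled to library size) in LX-2Vector and 2349 to 2481 in LX-2FAP. Most of each sum was *VIM*, at means of 1545 and 1695 CPM. The means of *COL1A1* (306 and 232 CPM), *COL3A1* (41.7 and 25.5) and *PDGFRB* (24.85 and 19.1) were lower in LX-2FAP. Of 6 hepatocyte markers 5, *ALB* among them, had no more than 3 counts in any library. The other, *SERPINA1*, was not called (log2 fold change -0.28, adjusted p = 0.0809), and the summed level of the list was 12.9 to 14.7 CPM in LX-2Vector and 10.5 to 11.6 in LX-2FAP. Of 6 endothelial markers 4 were tested and 1 (*VWF*) was called lower, with summed levels of 9.92 to 11.3 CPM in LX-2Vector and 7.34 to 9.26 in LX-2FAP. Of 6 leukocyte markers (summed 10.7 to 12.7 against 9.80 to 12.1 CPM) 3 were tested and none was called. Of 5 epithelial markers (summed 64.4 to 69.2 against 64.1 to 72.6 CPM) 3 were tested and none was called. Most of the epithelial sum was *SOX9*, at means of 60.2 CPM in LX-2Vector and 64.1 in LX-2FAP, whereas *EPCAM* was at 0.224 and 0.133. The part of these other cell type markers in the results was not tested.

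Of the 10 genes, 1 was called as differing between LX-2FAP and LX-2Vector: *GREM1*, a secreted BMP antagonist, was higher, by a fold of 1.14. This call was lost in 6 of 16 alternative fits. In these bulk libraries, a change in RNA per cell and a change in the share of cells of a kind cannot be told apart. The other 9 did not pass the test, among them *ID1*, *ID2* and *ID3*. A gene was called at a Benjamini-Hochberg adjusted p under 0.05 in edgeR's quasi-likelihood test over 18275 genes, which called 5.29% of them, 2.57% higher and 2.73% lower. At 1 of 10, or 10.0%, the members' share rests on a single gene. At an unadjusted p under 0.05, 3 of the 10 passed (*INHBA*, *GREM1* and *ID3*) against 22.2% of all tested genes. The normalized levels of the groups did not overlap for 3 (*GREM1*, *BAMBI*, *ID3*) against 26.4% of all tested genes. The median log2 fold change was -0.01 for the 10 genes and -0.01 for all tested genes. CPM values, those of the markers above included, are normalized by the trimmed mean of M values (TMM). The exception is the limit given for *ID4*, which uses total counts.

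**Figure D1:**
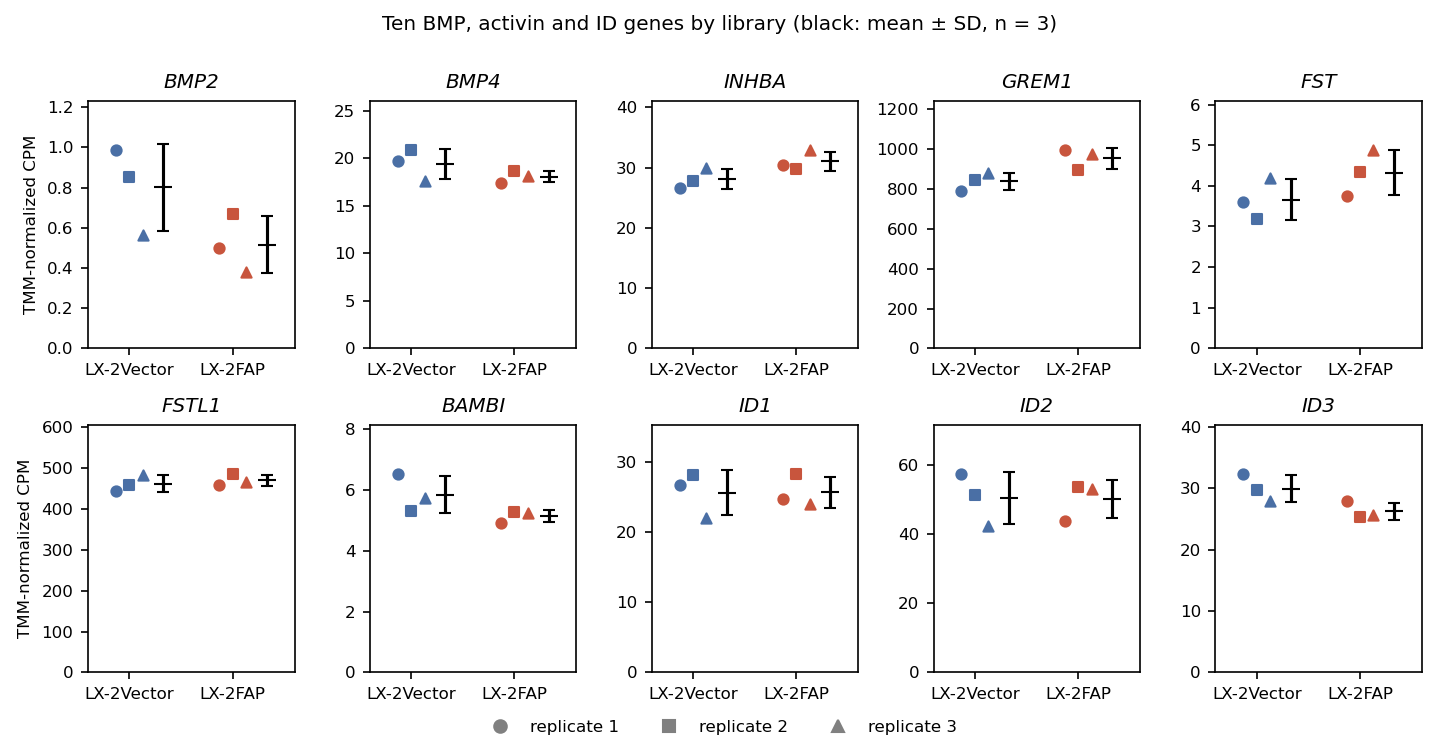
TMM-normalized CPM (y axes, linear from 0) of each of the 10 genes in the 3 LX-2Vector libraries (blue) and the 3 LX-2FAP libraries (red), with the mean ± SD in black and a symbol per replicate. All 3 LX-2FAP libraries lie above all 3 LX-2Vector libraries for *GREM1* and below them for *BAMBI* and *ID3*, and the groups overlap for the other genes.

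**Figure D2:**
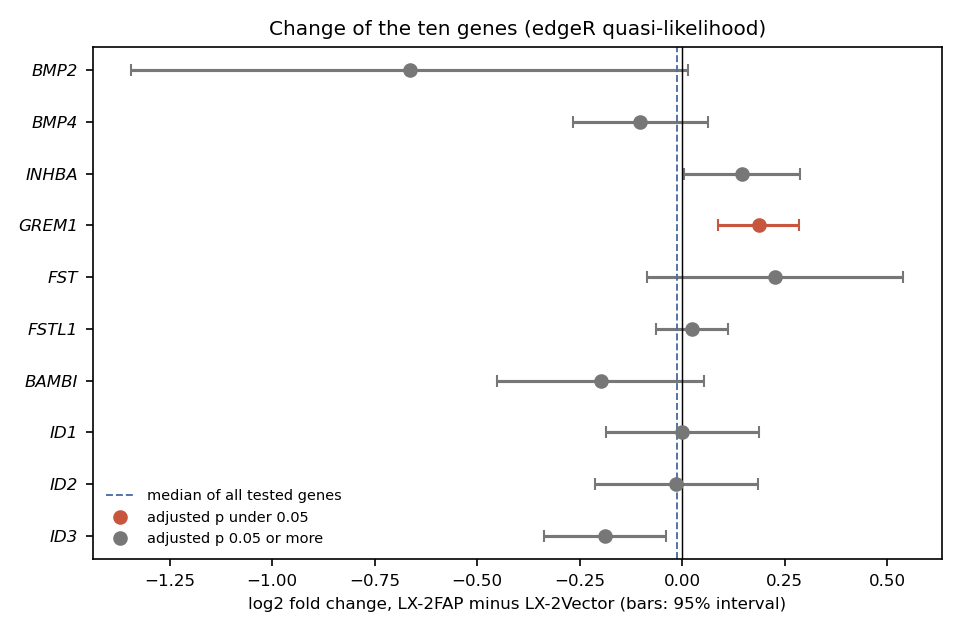
Log2 fold change of each of the 10 genes, LX-2FAP minus LX-2Vector, with its 95% interval from edgeR. *GREM1* (red, 0.19) is the one gene past the threshold, and the interval of *BMP2* is the widest, from -1.34 to 0.01.

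The sequence upstream of the first of 2 RefSeq starts of *GREM1*, the called gene, is given beside that of *ID1*, the ID gene with the fold change nearest 0, so that the elements of each can be compared. Both are read 5′ to 3′ on the gene strand from RefSeq (GRCh38.p14), start 250 bases before the RefSeq transcription start and stop before the first exon base of GENCODE release 29. *GREM1* is on the plus strand of chr15:32717754-32717973 and *ID1* on the plus strand of chr20:31605039-31605282. Capitals mark matches on either strand to the GC-rich SMAD element GGCGCC, the SMAD element CAGACA, the TATA box TATAAA and the CCAAT box CCAAT.
GREM1: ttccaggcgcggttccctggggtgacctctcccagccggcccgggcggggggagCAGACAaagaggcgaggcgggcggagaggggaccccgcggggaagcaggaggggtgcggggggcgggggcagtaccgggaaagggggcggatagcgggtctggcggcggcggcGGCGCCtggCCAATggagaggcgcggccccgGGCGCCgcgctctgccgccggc
ID1: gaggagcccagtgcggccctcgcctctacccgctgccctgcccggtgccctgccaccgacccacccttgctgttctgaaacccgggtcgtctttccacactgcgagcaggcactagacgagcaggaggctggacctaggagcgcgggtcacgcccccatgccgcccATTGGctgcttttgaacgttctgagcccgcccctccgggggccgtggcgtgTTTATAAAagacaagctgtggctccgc
In *GREM1*, GGCGCC lies at -83 to -78 and at -52 to -47 from the start, CAGACA at -196 to -191 and CCAAT at -74 to -70. In *ID1*, CCAAT lies at -84 to -80 and TATAAA at -33 to -28 and -31 to -26, which overlap on opposite strands. Among 35116 RefSeq promoter windows of 250 bases, 16.4% held GGCGCC, 13.6% CAGACA, 10.7% TATAAA and 32% CCAAT. The median GC content of these windows was 58.0%, and the shares do not take GC content into account. The SMAD palindrome GTCTAGAC was in 0.182% and in none of the 12 windows of the 9 members with an entry (*BMP2* had none). These windows include 3 starts of *BMP4* and 2 of *GREM1*, whose second start holds none of the elements. The GC-rich element was in 4 of the 12 windows (of *BAMBI*, *BMP4*, *FSTL1* and *GREM1*), CAGACA in 2 (*GREM1* and the third start of *BMP4*), TATAAA in 2 (*ID1* and *INHBA*) and CCAAT in 6 (*BAMBI*, *FST*, *GREM1*, *ID1*, *ID2*, *INHBA*). The 4 windows with the GC-rich element had GC contents of 81.2%, 63.6%, 74.4% and 76.8%, in the order named, all above that median. The part of GC content in these matches was not tested. These are letter matches, not measured binding sites. Sequence more than 250 bases before a start was not searched, so elements further upstream of either gene would be missed.

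Among the ligands, *BMP4* (chr14:53949736-53958761, minus strand) signals through BMP receptors. Its level was 19.7, 20.8 and 17.6 CPM in the LX-2Vector libraries, in the order of replicates 1 to 3 used throughout, against 17.4, 18.6 and 18.1 in LX-2FAP. The groups overlapped, with LX-2Vector replicate 3 inside the LX-2FAP range. The log2 fold change was -0.10 ± 0.08 (SE, n = 3 and 3, 95% interval -0.27 to 0.06, edgeR adjusted p = 0.483). Leaving out LX-2Vector replicate 2 gave -0.05, leaving out replicate 3 of that group gave -0.16, and it was -0.02 after each library's trend on GC content was removed. *BMP2* (chr20:6767664-6780280, plus strand), the closest relative of *BMP4*, was barely detected, at 26, 15 and 12 counts in LX-2Vector and 12, 12 and 8 in LX-2FAP. That is 0.984, 0.855 and 0.564 CPM against 0.501, 0.667 and 0.382, and the ranges overlap. Its log2 fold change of -0.66 ± 0.32 was the largest of the 10 in size, and its interval of -1.34 to 0.01 left a fold between 0.394 and 1.01 (adjusted p = 0.236 by edgeR). At these counts a change was not detected.

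*INHBA* (chr7:41667168-41705834, minus strand), the inhibin βA subunit of activin A, stood at 26.6, 27.8 and 29.9 CPM in LX-2Vector and 30.5, 29.8 and 32.8 in LX-2FAP. The ranges overlapped slightly, since LX-2FAP replicate 2 lay just below LX-2Vector replicate 3. *INHBA* had a log2 fold change of 0.15 ± 0.07 (95% interval 0.01 to 0.29, unadjusted p = 0.0425), and the edgeR adjusted p of 0.207 did not pass.

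*GREM1* (chr15:32717974-32745107, plus strand) encodes gremlin 1, which binds BMP2 and BMP4 and keeps them from their receptors. It gave 20932, 14801 and 18714 counts in LX-2Vector and 23809, 16099 and 20427 in LX-2FAP. In CPM this is 792, 843 and 880 against 993, 895 and 975. Every LX-2FAP library was above every LX-2Vector library, and the nearest pair was LX-2FAP replicate 2 and LX-2Vector replicate 3. The means were 839 ± 44.0 and 954 ± 52.3 CPM (SD, n = 3). *GREM1* differed by a log2 fold change of 0.19 ± 0.05 (SE), a fold of 1.14 with a 95% interval of 1.06 to 1.22 (edgeR quasi-likelihood adjusted p = 0.0316). In the deposited FPKM, scaled by total counts without TMM, the ranges overlapped, at 53.7, 57.7 and 60.1 against 66.6, 59.7 and 65.1. The call was lost with library size alone (adjusted p = 0.0613), in limma on log2(FPKM + 1) (0.186), without LX-2FAP replicate 3 (0.176, log2 fold change 0.17), without LX-2Vector replicate 1 (0.0890, 0.15) and without LX-2Vector replicate 2 (0.0689, 0.20). Exons shared with an antisense gene were 1.29% of its length.

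*FST* (chr5:53480409-53487134, plus strand) encodes follistatin, which sequesters activin. It was at 3.60, 3.19 and 4.18 CPM in LX-2Vector and 3.75, 4.34 and 4.87 in LX-2FAP. The groups overlapped, since LX-2FAP replicate 1 lay below LX-2Vector replicate 3. Its log2 fold change was 0.23 ± 0.15 (95% interval -0.08 to 0.54, edgeR adjusted p = 0.392), and 0.13 without LX-2FAP replicate 3. *FSTL1* (chr3:120392293-120451253, minus strand), a secreted follistatin-like glycoprotein, gave 443, 458 and 483 CPM in LX-2Vector and 458, 484 and 466 in LX-2FAP. Its groups lay on top of each other. The log2 fold change of 0.02 ± 0.04 had a 95% interval of -0.06 to 0.11 (adjusted p = 0.795), the narrowest of the 10, or a fold between 0.956 and 1.08.

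*BAMBI* (chr10:28677342-28682939, plus strand) is a pseudoreceptor that resembles type I receptors and lacks the kinase domain. It was 6.51, 5.30 and 5.74 CPM in LX-2Vector and 4.92, 5.28 and 5.25 in LX-2FAP. All LX-2FAP libraries were lower than all LX-2Vector libraries, but LX-2Vector replicate 2 at 5.30 and LX-2FAP replicate 2 at 5.28 were almost equal. The log2 fold change was -0.20 ± 0.12 (95% interval -0.45 to 0.05, edgeR adjusted p = 0.352), and -0.10 without LX-2Vector replicate 1.

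The ID genes were not called. *ID1* (chr20:31605283-31606515, plus strand) stood at 26.7, 28.2 and 22.1 CPM in LX-2Vector and 24.8, 28.2 and 24.1 in LX-2FAP. The highest value of each group was the same to 3 digits and the lowest was in LX-2Vector. Its log2 fold change of 0.00 ± 0.09 had a 95% interval of -0.19 to 0.19 (edgeR adjusted p = 0.998), a fold between 0.879 and 1.14. *ID2* (chr2:8678845-8684453, plus strand) stood at 57.2, 51.3 and 42.4 CPM against 43.6, 53.7 and 53.0. The highest and the lowest of the 6 were both LX-2Vector libraries, and the log2 fold change was -0.01 ± 0.09 (95% interval -0.21 to 0.18, adjusted p = 0.957).

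*ID3* (chr1:23557918-23559794, minus strand) stood at 32.2, 29.6 and 27.8 CPM in LX-2Vector and 27.8, 25.2 and 25.7 in LX-2FAP. The groups did not overlap, though LX-2Vector replicate 3 at 27.833 and LX-2FAP replicate 1 at 27.827 nearly met. *ID3* had a log2 fold change of -0.19 ± 0.07 (95% interval -0.34 to -0.04, unadjusted p = 0.0165), and the edgeR adjusted p of 0.124 did not pass. It was -0.08 after removal of each library's GC trend (adjusted p = 0.512) and -0.12 without LX-2Vector replicate 1 (0.357). In the other direction, it was -0.23 without LX-2FAP replicate 1 (edgeR adjusted p = 0.0643) and -0.22 with library size alone (0.0767). The sign was kept in all 16 alternative fits, and none of them called *ID3*. The summed FPKM of the 3 ID genes was 69.2, 66.6 and 56.2 in LX-2Vector and 57.9, 63.2 and 59.8 in LX-2FAP, so the sums overlapped. *ID4*, the remaining family member, had 0 counts in all 6 libraries, which allows at most 0.114 to 0.173 CPM in a library (3 counts, counting error only).

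Per length, *GREM1* and *FSTL1* had the highest levels, at 57.2 ± 3.21 and 54.9 ± 2.55 FPKM (SD, n = 3) in LX-2Vector. Their ranges overlapped. *ID2*, *ID1* and *ID3* came next at 22.9 ± 3.33, 21.0 ± 2.62 and 20.1 ± 1.41 FPKM and did not differ beyond their spread. Below them came *BMP4* (6.31 ± 0.53), *INHBA* (3.42 ± 0.22), *BAMBI* (2.75 ± 0.28), *FST* (1.34 ± 0.18) and *BMP2* (0.228 ± 0.060), and from *ID3* down no neighbours overlapped. The order was identical in LX-2FAP. The ratio of *GREM1* to *BMP4* in FPKM was 8.43, 8.49 and 10.5 in LX-2Vector and 11.96, 10.1 and 11.3 in LX-2FAP, which overlap, and that of *FST* to *INHBA* was 0.407, 0.346 and 0.421 against 0.371, 0.438 and 0.446, which also overlap.

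**Figure D3:**
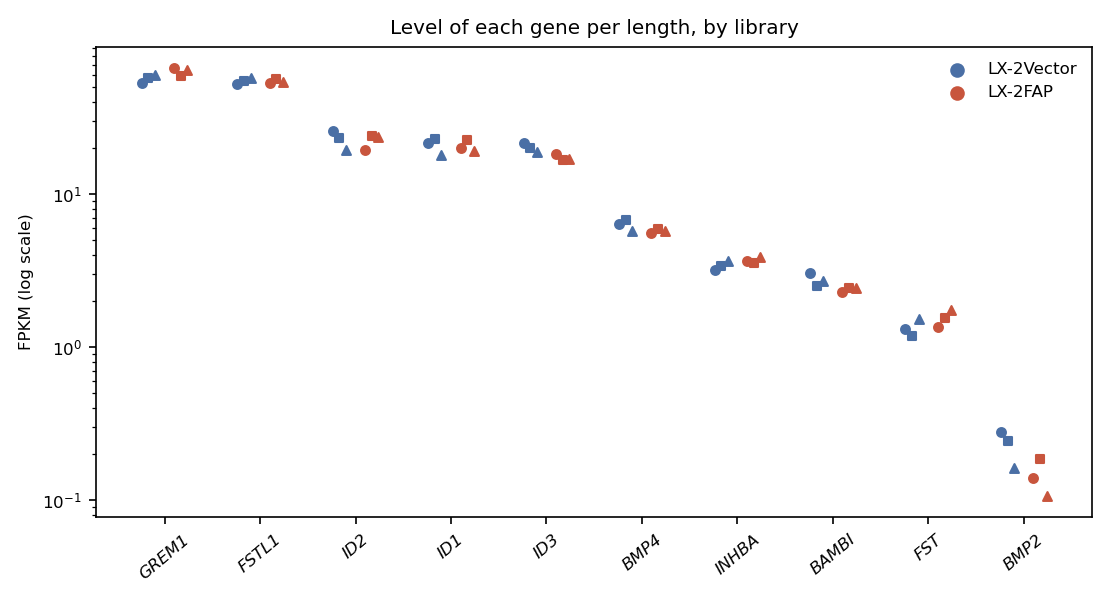
FPKM (y axis, log scale) of the 10 genes in each library, ordered by their mean in LX-2Vector, blue for LX-2Vector and red for LX-2FAP. The levels run from 57.2 FPKM for *GREM1* to 0.228 for *BMP2*, and the order is the same in both groups.

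Across the 6 libraries, the tested genes of mean CPM 10 or more whose centred log2 CPM lay nearest to *GREM1* were *MICU2*, *KIF20B* and *PERP*, at a root mean square difference of 0.0116, 0.0185 and 0.0196 among 10018 genes. Those nearest to *ID1* were *ZSCAN9*, *TTI2* and *CBWD5* (0.0336 to 0.0383), those nearest to *ID2* were *DOHH*, *HEXIM1* and *AIFM2* (0.0192 to 0.0550), and those nearest to *ID3* were *RPS6KB2*, *ZNF76* and *SMO* (0.0225 to 0.0242). With 6 libraries this describes likeness of profile only, and no ID gene was among the nearest 3 of another.

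The wider pathway list held 94 genes in 5 roles, of which 59 were tested. Of these, 6 (10.2%) were called, 4 higher and 2 lower, against 5.29% of all tested genes, with a median log2 fold change of -0.01. Without the 10 members, 5 of 49 were called. The list was chosen with earlier results of these data known, so its share and that of all genes are not an independent comparison. By role, 0 of 11 tested ligands, 1 of 11 receptors and coreceptors, 3 of 10 secreted antagonists and modulators, 2 of 15 intracellular transducers and inhibitors, and 0 of 12 targets and ID partners were called. In the 2 roles with no call, 2 ligands and 3 targets had an unadjusted p under 0.05, and DESeq2 called 0 of either. The median log2 fold change by role ran from -0.09 (ligands) to 0.01 (intracellular transducers).

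**Figure D4:**
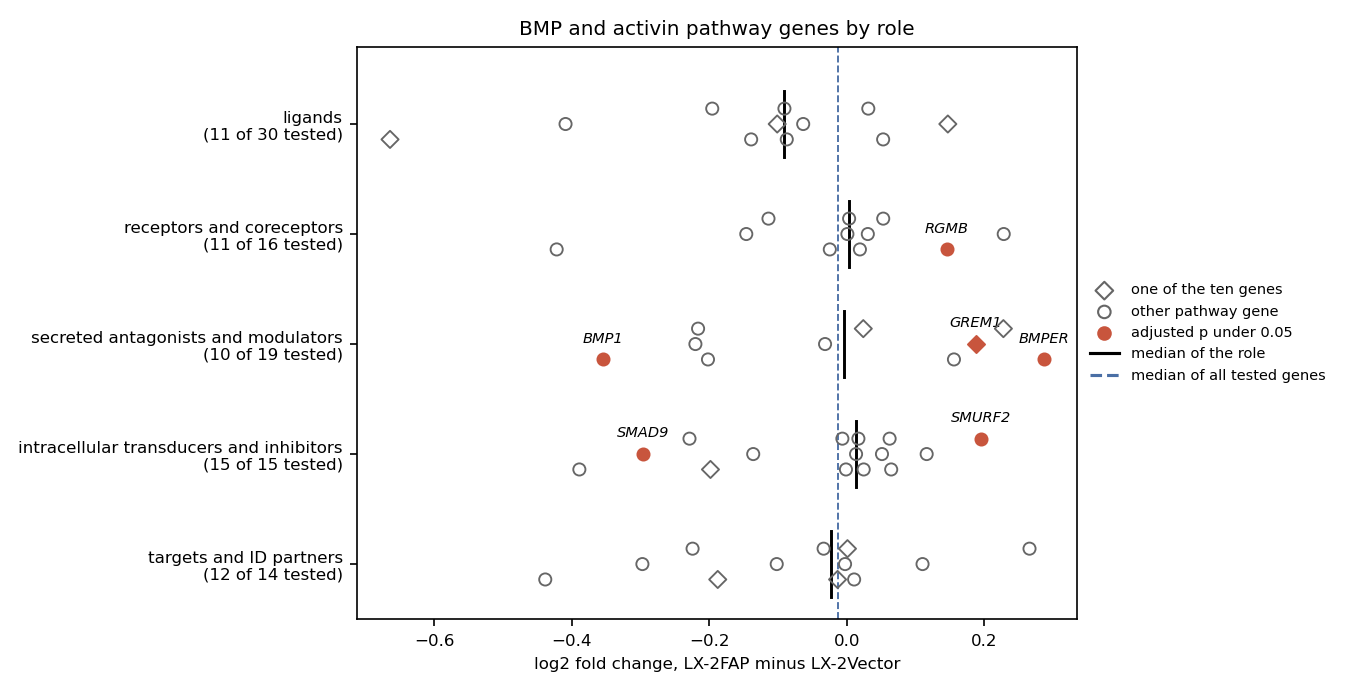
Log2 fold change (x axis) of the 59 tested pathway genes by role, with filled red symbols for genes called at an adjusted p under 0.05, diamonds for the 10 members, black bars for the median of a role and a dashed line for the median of all tested genes. The 6 called genes lie in 3 of the 5 roles, 4 to the right of 0 and 2 to the left.

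Among the secreted modulators, *BMPER*, which binds BMPs outside the cell, rose from 13.4, 14.7 and 14.4 to 16.0, 18.01 and 17.9 CPM (log2 fold change 0.29 ± 0.08, edgeR adjusted p = 0.0498). *BMP1*, a metalloprotease that cleaves procollagen and the BMP antagonist chordin, fell from 49.2, 49.1 and 53.2 to 43.6, 35.6 and 38.9 CPM (-0.35 ± 0.07, adjusted p = 0.0117). *BMP1* shares 6.17% of its exon bases with another gene on its strand. *TWSG1*, a secreted BMP modulator with the highest level of the role at 68.0 ± 4.16 FPKM in LX-2Vector and 74.3 ± 3.33 in LX-2FAP, did not pass (0.16 ± 0.05, edgeR adjusted p = 0.0689). It was called by DESeq2 and by edgeR with no filter on low counts, but not with library size alone or in limma on FPKM.

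Among the transducers, *SMURF2*, a ubiquitin ligase that targets SMADs and receptors, rose from 198, 201 and 203 to 227, 231 and 230 CPM (0.19 ± 0.04, edgeR adjusted p = 0.0122). *SMAD9*, a BMP-receptor-activated SMAD, fell from 20.9, 21.8 and 22.9 to 17.9, 16.96 and 18.4 CPM (-0.30 ± 0.07, adjusted p = 0.0284). For both, the levels of the groups did not overlap. The SMADs with the highest levels, *SMAD5* (26.8 ± 1.17 FPKM in LX-2Vector) and *SMAD3* (26.1 ± 1.66), gave adjusted p of 0.119 and 0.134.

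Among the receptors, *RGMB*, a BMP coreceptor, was called higher at the edge of the threshold (98.1, 99.8 and 97.8 against 109, 109 and 109 CPM, log2 fold change 0.15 ± 0.04, edgeR adjusted p = 0.04995). Of its exon bases 45.6% lie opposite antisense genes, so its count is uncertain if strand was not used. *BMPR2*, the type II BMP receptor, and *ENG* gave log2 fold changes of -0.02 ± 0.04 and 0.00 ± 0.06. *GDF11*, the second highest ligand after *BMP4*, gave -0.06 ± 0.06.

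The number of calls moved with the library left out, over all genes as in the pathway. Without LX-2FAP replicate 3, 26 of all tested genes were called, against 967 with all libraries, and none of the 94 genes was called by edgeR, with 13 at an unadjusted p under 0.05, and without LX-2FAP replicate 2 only *GREM1* was, with 129 over all genes. Without LX-2Vector replicate 1 the called genes were *BMP1*, *SMAD9* and *SMURF2* (391 over all genes), without LX-2Vector replicate 2 *BMP1* and *SMURF2* (662), and without LX-2Vector replicate 3 *BMP1*, *GREM1*, *SMURF2* and *TWSG1* (395). Without LX-2FAP replicate 1 there were 10, *GREM1* among them, and 1949 over all genes. *RGMB* lost its call under each omission (adjusted p = 0.0583 to 0.2265). *BMPER* was not called by DESeq2 (0.0622) or with library size alone (0.0694), *RGMB* with library size alone (0.104) or with no filter on low counts (0.0781), or *BMP1* after a GC correction (0.0667), and in limma on FPKM the 6 genes had adjusted p of 0.112 to 0.200.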

How the data were processed

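RNA of 6 libraries was sequenced, 3 per group, grouped by the sample titles. The authors deposited whole-number counts per gene and FPKM values computed from gene length. Per the submitters' processing notes, the tools were HISAT2 2.0.5, featureCounts 1.5.0-p3, DESeq2 1.16.1 and edgeR, and the build hg18. The table gives no coordinates, and its identifiers match later releases, so GENCODE release 29 (GRCh38) coordinates are given. Strand use in counting is not given in the sources used here. The labels describe ribosomal depletion and the methods also poly(A) isolation.

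Counts were tested with edgeR 4.0.16 (quasi-likelihood, TMM, minimum count 10 and minimum total 15), LX-2FAP against LX-2Vector with no covariate, adjusted over 18275 genes. Intervals cover 95%. Fold changes in the limma alternatives are on the log2(FPKM + pseudocount) scale. The 10 members, the 94 pathway genes and the marker lists were chosen with earlier results of these data known. All members, every called pathway gene, the 3 highest by FPKM per role and the 3 genes nearest in profile to *GREM1* and to each ID gene were named. Alternatives were DESeq2 1.42.0, limma 3.58.1 on FPKM, other scaling and filters, a replicate block and each library left out. GC and length corrections (loess, span 0.5) were added after seeing the data. With 3 against 3, an exact permutation test cannot give a 2-sided p below 0.1.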

Additional observations from a re-analysis of the deposited data

How the results depend on the processing

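One of the 10 genes, *GREM1*, was called in the report. The number of members called was 0 with library size alone, with limma on log2(FPKM + 1) and with limma on log2(FPKM + 0.1), as was the number called higher, and both limma fits also gave 0 pathway genes, with 18 at an unadjusted p under 0.05. Those limma fits called 2 genes of all 18275. Leaving out each library in turn gave 0 to 1 members called, 0 to 1 called higher, 0 called lower (0 by DESeq2 too, and 1 at an unadjusted p under 0.05 in the fit of the report) and 0 to 10 pathway genes called, against 1, 1, 0 and 6, while calls over all genes ran from 26 to 1949 against 967. The log2 fold change of FAP was 8.17 to 8.45. With the replicate block 1 member and 5 pathway genes were called (975 genes in all against 967). *BMPER* (edgeR adjusted p = 0.0519) and *RGMB* (0.0602) were no longer called and *TWSG1* was. The deviations of same-numbered libraries from their group means correlated at -0.0593, 0.0657 and -0.0173, and those of differently numbered libraries at -0.15 to 0.167. Expression thus showed no pairing by replicate number, which cannot tell whether same-numbered libraries were prepared together. The GC and length corrections, chosen after seeing the data, kept *GREM1* called (adjusted p = 0.0407 and 0.00618), and *BMP1* lost its call under the GC correction (0.0667). That correction left 1 member, *GREM1*, at an unadjusted p under 0.05, against 3. The median of all tested genes was -0.04 with library size alone.

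Signs turned for values near 0, none of them called. *ID1* gave -0.0277 with library size alone, -0.0004 with no filter, -0.0208 and -0.0216 in the limma fits, and -0.0887 to 0.0744 when libraries were left out. With the GC and length corrections *ID1* kept its sign, at 0.1254 and 0.041, and the former was its value farthest from 0. *ID2* gave 0.0065 with DESeq2, 0.0598 and 0.0299 with the GC and length corrections, and -0.1175 to 0.0986 when libraries were left out. *FSTL1* gave -0.0052 with library size alone, -0.0042 in each limma fit and -0.0031 to 0.0648 when libraries were left out. The cause was not tested. DESeq2 gave no adjusted p for *BMP2* and *FST*, and *BMP2* was not tested with at least 10 counts in every sample. *BMP2* rests on 8 to 26 counts per library.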
